A study of Mus musculus with 4 samples.

Results

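Interleukin receptor subunits are the surface chains through which T lymphocytes sense cytokines, and 10 of them were followed in liver natural killer T (NKT) cells: Il2ra, Il2rb, Il2rg, Il7r, Il4ra, Il12rb1, Il18r1, Il18rap, Il21r and Il6st. They were taken by symbol from the deposited read-count table of 12021 rows, where all 10 are present, and all 10 passed the filter on low counts. After stimulation through the T cell receptor, Il2ra and Il12rb1 were higher, Il7r, Il18r1 and Il18rap were lower, and the other 5 did not pass the threshold. The samples are 2 libraries of NKT cells stimulated by plate-bound mouse CD1d tetramers that carry the lipid PBS57, and 2 libraries of NKT cells kept resting. Both groups came from C57BL/6 mice aged 10 to 12 weeks with a Vα14 receptor transgene and GFP at 1 Cxcr6 allele (Va14 Tg.cxcr6gfp/+), and the cells were sorted as GFPhi. The sort thus rested on a Cxcr6 reporter in cells with a transgenic receptor, and neither the duration of stimulation nor any pooling of mice is stated in the labels. Liver is the labelled tissue, although the sort protocol also mentions spleens and the extraction protocol islets.

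Cytokine receptors work as pairs or trios of chains. In the IL-2 family, Il2rg encodes the common gamma chain, which pairs with a private chain for IL-2 and IL-15 (Il2rb), IL-4 (Il4ra), IL-7 (Il7r) or IL-21 (Il21r), and Il2ra encodes CD25, which raises the affinity for IL-2. Il12rb1 serves IL-12 and IL-23, Il6st encodes gp130, the shared signalling chain of the IL-6 family, and all of these signal through Janus kinases and STAT factors. Il18r1 and Il18rap form the IL-18 receptor, a member of the IL-1 receptor family that signals through Myd88 and IRAK kinases. IL-12 and IL-18 are known as drivers of interferon gamma in NKT cells, and IL-15 and IL-7 as support for their survival.

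Promoters of Il2ra, which rose, and of the 3 members that fell are shown because these genes carry the result. Each is the 250 bases before the annotated start, 5′ to 3′ on the gene's own strand, from RefSeq on build GRCm38.p6. This is not the build mm9 of the submitters' processing notes, and the table was matched by symbol for 8 of the 10 members, without Il2rb and Il12rb1. Capitals mark matches on either strand to NF-kB (a degenerate 10-base motif), STAT (TTCNNNGAA), AP-1 (TGANTCA), NFAT (GGAAA) and FOXO (GTAAACA), which may overlap.
Il2ra promoter, chr2:11642542-11642791, plus strand: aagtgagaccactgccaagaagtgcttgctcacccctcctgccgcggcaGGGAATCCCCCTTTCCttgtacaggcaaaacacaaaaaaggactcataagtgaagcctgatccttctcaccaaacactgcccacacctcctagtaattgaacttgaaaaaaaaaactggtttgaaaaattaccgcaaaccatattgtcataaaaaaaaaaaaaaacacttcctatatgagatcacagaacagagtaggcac
Il7r promoter, chr15:9529877-9530126, minus strand: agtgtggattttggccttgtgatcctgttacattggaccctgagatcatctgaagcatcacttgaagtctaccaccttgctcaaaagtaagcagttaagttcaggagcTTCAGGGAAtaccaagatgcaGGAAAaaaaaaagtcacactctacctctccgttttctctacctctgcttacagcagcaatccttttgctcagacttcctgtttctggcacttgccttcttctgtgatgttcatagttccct
Il18r1 promoter, chr1:40465302-40465551, plus strand: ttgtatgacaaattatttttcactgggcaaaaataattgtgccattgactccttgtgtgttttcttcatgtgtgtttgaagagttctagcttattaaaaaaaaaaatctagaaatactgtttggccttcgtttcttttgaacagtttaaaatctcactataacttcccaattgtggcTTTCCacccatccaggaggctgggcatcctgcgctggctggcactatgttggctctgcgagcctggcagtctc
Il18rap promoter, chr1:40515112-40515361, plus strand: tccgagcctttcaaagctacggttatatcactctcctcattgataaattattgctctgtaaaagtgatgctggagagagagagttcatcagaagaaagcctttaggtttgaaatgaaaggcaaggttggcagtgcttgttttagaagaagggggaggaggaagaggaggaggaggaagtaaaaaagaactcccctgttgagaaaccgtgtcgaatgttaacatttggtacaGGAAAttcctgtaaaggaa
The NF-kB motif was found in 7.25% of all 32851 promoter windows of this length and, among the 8 members with a window, in that of Il2ra alone, where GGGAATCCCC starts 201 bases before the gene. A STAT match was in 7.02% of all windows and in those of Il7r and Il18r1, for Il18r1 only before the third of its annotated starts and not in the window printed. NFAT letters were in 55.6% of all windows and in those of 7 members, all but Il21r. The FOXO letters, in 3.17% of all windows, matched only Il21r, and AP-1, in 6.75%, matched 0 members. These matches describe letters and not binding.

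Library totals were 5495521 and 5398551 counts in tetramer libraries 4 and 5, and 4168438 and 4433048 counts in resting libraries 4 and 5, numbered as the table's columns are. Tetramer library 4 lay farther from the resting libraries than tetramer library 5 did, with correlations across genes (Pearson's r, log2 CPM) of 0.787 to 0.790 against 0.836 to 0.838. T cell and NKT cell markers were present, with 10 of 10 listed and a summed level of 3076 and 3161 CPM in the tetramer libraries and 3069 and 3090 CPM in the resting libraries. Within that list the receptor kinase gene Zap70 was called higher, and the NK1.1 gene Klrb1c and the reporter locus Cxcr6 were called lower. Markers of several other cell types were at low summed levels that were lower in both tetramer libraries. Neutrophil markers (3 of 7 listed, 3 called lower) summed to 40.5 and 51.0 CPM in the tetramer libraries and 121 and 236 CPM in the resting libraries, most of it Csf3r. Erythroid and platelet markers (3 of 6, 3 called lower) summed to 19.2 and 45.9 against 89.9 and 247 CPM, and hepatocyte markers (3 of 9, 2 called lower) to 13.7 and 18.2 against 38.5 and 59.0 CPM. For the endothelial list (2 of 7 listed, 1 called lower) the sums were 12.9 and 17.4 against 75.4 and 29.7 CPM, most of it Pecam1. The other endothelial gene, Stab1, was not tested and went the other way. It had 13 and 8 counts in the tetramer libraries, against 2 and 4 counts in the resting libraries. For macrophages and Kupffer cells (4 of 11, 1 called lower) the sums were 9.0 and 11.3 against 21.3 and 26.7 CPM. The table lists no gene with a 0, and Alb, Lyz2, Cdh5, Ncr1 and Ly6g are not among its rows. B cell markers (5 of 7, 1 called higher and 1 lower) summed to 18.8 and 24.1 against 28.4 and 41.7 CPM. Stellate cell markers (1 of 6) summed to 1.84 and 2.02 against 1.86 and 4.49 CPM. The part of these cells in the falls below was not tested, and in bulk libraries fewer cells of a type and less RNA per cell cannot be told apart.

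Among the 10 receptor subunits, 2 were called higher and 3 lower (edgeR, quasi-likelihood F test, adjusted p under 0.05). Of the 11312 genes tested, 14.3% were called higher, 12.1% lower and 26.4% in either direction, so that the members' share of higher calls was near that of all genes. The 2 groups did not overlap in CPM for 8 of the 10 members, where 65.2% of all tested genes had groups that did not overlap. The median log2 fold change (tetramer over resting) was 0.05 over the members and -0.06 over all genes. CPM here are counts scaled to the TMM-adjusted size of each library, and values are compared between libraries for a gene, not between genes, since reads per transcript also depend on its length.

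**Figure D1:**
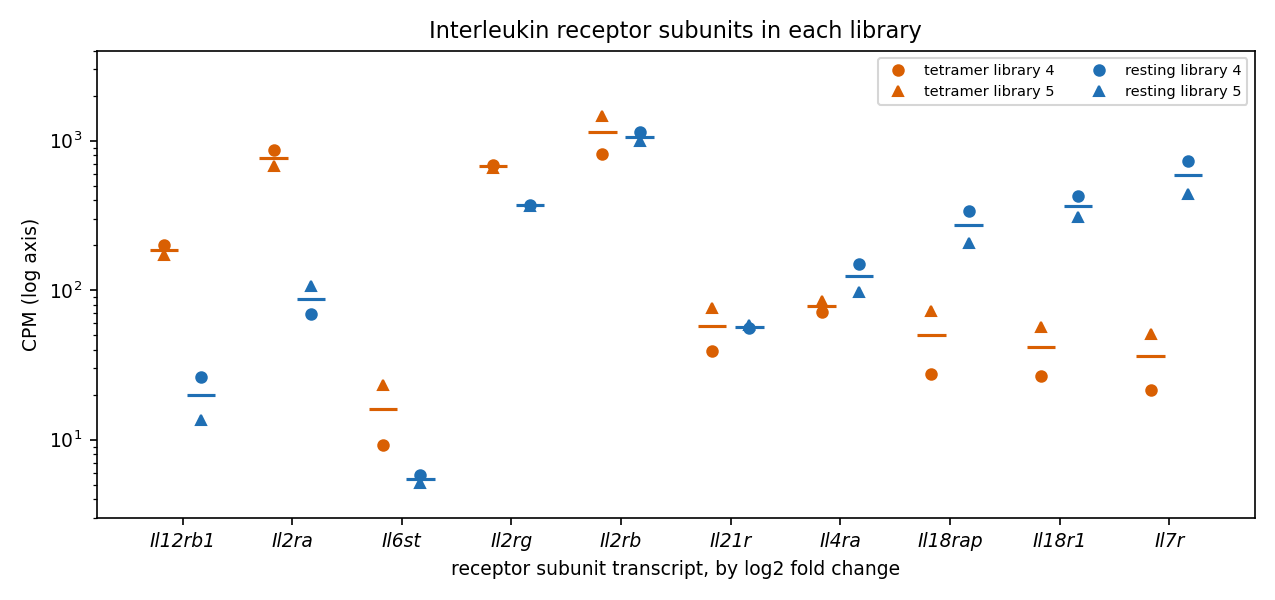
CPM of each receptor subunit in each library on a log axis, with points for the 2 tetramer libraries (orange, left) and the 2 resting libraries (blue, right) and bars for group means. Il12rb1 and Il2ra lie higher in both tetramer libraries, Il18rap, Il18r1 and Il7r lower, and the groups overlap for Il2rb and Il21r.

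In the IL-2 receptor, the affinity-setting chain rose, and its signalling partners did not pass the threshold. Il2ra stood at 863 and 676 CPM in tetramer libraries 4 and 5, against 69.4 and 106 CPM in resting libraries 4 and 5. Both tetramer libraries were far above both resting libraries. The rise was 8.78-fold in mean CPM, or 3.13 ± 0.40 (SE) on the log2 scale (edgeR adjusted p = 3.36e-06), and ranked 200 among the 11312 genes from the largest rise. CD25 also marks regulatory T cells. Of that list 4 of 6 markers were listed, summing to 139 and 106 CPM in the tetramer libraries and 62.4 and 65.6 CPM in the resting libraries. Tnfrsf4, which activated T cells also express, was called higher. The defining factor Foxp3 was at 8.39 and 8.90 CPM in the tetramer libraries and 15.1 and 7.69 CPM in the resting libraries, with no call. The part of regulatory T cells in the Il2ra rise was not tested.

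Il2rb, the chain that NKT cells use for IL-15 as well as IL-2, had 815 and 1457 CPM in the tetramer libraries and 1138 and 996 CPM in the resting libraries. The tetramer libraries lay on either side of the resting pair. The log2 fold change of 0.09 ± 0.39 did not pass the threshold (edgeR adjusted p = 0.888), with a 95% interval from -0.70 to 0.88, and it was negative without tetramer library 5 or with library totals.

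Il2rg, the common gamma chain, had 692 and 657 CPM in the tetramer libraries and 374 and 368 CPM in the resting libraries. The libraries of each group lay close together and the groups did not overlap. The difference of 0.86 ± 0.36 on the log2 scale did not pass the threshold (edgeR adjusted p = 0.0785; 95% interval 0.12 to 1.61), although it did by DESeq2 (adjusted p = 0.0420).

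Of the private chains that pair with the common gamma chain, only that of IL-7 was called, and it was lower. Il7r had 21.5 and 50.8 CPM in the tetramer libraries, against 733 and 438 CPM in the resting libraries. The lower resting library was still far above the higher tetramer library. Mean CPM was 16.2-fold lower, which is -4.02 ± 0.46 on the log2 scale (edgeR adjusted p = 5.47e-07) and ranked 22 from the largest fall. It was -3.51 without tetramer library 4 and -4.76 without tetramer library 5, and called in both cases.

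Il4ra, the chain for IL-4 and IL-13, had 71.6 and 84.4 CPM in the tetramer libraries and 150 and 97.9 CPM in the resting libraries. Both tetramer libraries were below both resting libraries, by less than the test could call (log2 fold change -0.67 ± 0.37, edgeR adjusted p = 0.186; 95% interval -1.44 to 0.10). For Il21r the levels were 39.3 and 75.9 CPM in the tetramer libraries and 56.1 and 58.1 CPM in the resting libraries. The resting pair lay inside the range of the tetramer pair, and the log2 fold change was 0.01 ± 0.41 (edgeR adjusted p = 0.988; 95% interval -0.82 to 0.84). Il21r directly follows Il4ra in the RefSeq order of protein-coding genes on chromosome 7, and neither passed the threshold.

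Both chains of the IL-18 receptor fell together. Il18r1, the ligand-binding chain, had 26.6 and 57.0 CPM in the tetramer libraries and 425 and 310 CPM in the resting libraries. Il18rap, its accessory chain, had 27.6 and 72.4 CPM in the tetramer libraries and 340 and 208 CPM in the resting libraries. For both genes every tetramer value was below every resting value, and tetramer library 4 was the lower of its pair. The log2 fold changes were -3.13 ± 0.42 for Il18r1 (edgeR adjusted p = 6.15e-06) and -2.45 ± 0.43 for Il18rap (edgeR adjusted p = 1.67e-04). Without tetramer library 4 they were -2.67 and -1.90, and without tetramer library 5 they were -3.78 and -3.30, with both genes called each time. The 2 genes are neighbours on chromosome 1, in the cluster that also holds the IL-33 receptor gene Il1rl1. That gene, next to Il18r1 on the other side, had 10.4 and 19.4 CPM in the tetramer libraries and 16.0 and 26.9 CPM in the resting libraries, with no call (log2 fold change -0.52, edgeR adjusted p = 0.474). Conventional NK cells also carry the IL-18 receptor. Their markers (3 of 6 listed, 0 called by edgeR, DESeq2 or limma-voom, 1 lower at an unadjusted p under 0.05) summed to 21.5 and 30.3 CPM in the tetramer libraries and 31.9 and 63.9 CPM in the resting libraries. Markers of type 2 innate lymphoid and mast cells (2 of 6 listed, 0 called by the same tools, 1 lower at an unadjusted p under 0.05) summed to 89.0 and 145 against 242 and 166 CPM, most of it Gata3, which NKT cells also express. The NK1.1 gene Klrb1c, which conventional NK cells also express, was listed with the NKT markers and called lower. It had 2.86 and 13.6 CPM in the tetramer libraries and 114 and 174 CPM in the resting libraries. The part of any of these cells in the fall was not tested.

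The chain shared by the IL-12 and IL-23 receptors rose. Il12rb1 had 200 and 172 CPM in the tetramer libraries, against 26.3 and 13.5 CPM in the resting libraries, with all tetramer values above all resting values. The log2 fold change of 3.22 ± 0.42 (edgeR adjusted p = 3.75e-06) was the largest rise among the 10 members and ranked 183 among all genes. Il6st, the gp130 chain, was at 9.21 and 23.1 CPM in the tetramer libraries and 5.80 and 5.13 CPM in the resting libraries, from 45 and 114 counts against 28 and 24. The groups did not overlap, yet tetramer library 4 lay nearer to the resting pair than to tetramer library 5. Its log2 fold change of 1.56 ± 0.59 just missed the threshold (edgeR adjusted p = 0.0505; 95% interval 0.35 to 2.77). The gene was called higher without resting library 4 (1.66, adjusted p = 0.0461), when the column number was a replicate block (adjusted p = 0.0454) and under the stricter filter (adjusted p = 0.0416), while without tetramer library 5 the value was 0.76 (adjusted p = 0.617).

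**Figure D2:**
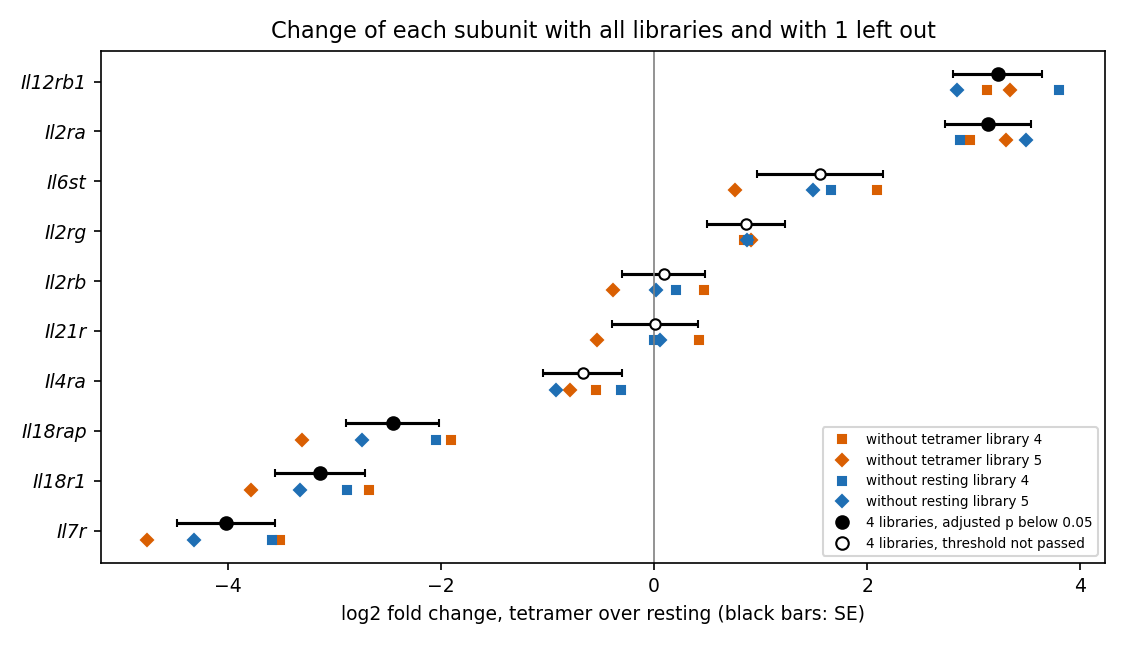
Change of each receptor subunit (log2, tetramer over resting) with its SE from 4 libraries (black, filled where called), and below it the value with each library left out (orange for a tetramer library, blue for a resting library). The 5 called members keep their direction in each case, and Il2rb and Il21r have values on both sides of 0.

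Ratios of partner chains within a library do not depend on the scaling of libraries. They are ratios of read counts, not of protein or of molecules, so the change between groups is what can be read. Il2ra reads were 1.06 and 0.464 times those of Il2rb in tetramer libraries 4 and 5, against 0.0610 and 0.106 times in resting libraries 4 and 5. The mean log2 ratio was 3.12 higher after stimulation (2.53 to 3.72 when single libraries were left out). Against the common gamma chain, Il2ra reads were 1.25 and 1.03 times those of Il2rg in the tetramer libraries and 0.186 and 0.288 times in the resting libraries. In both ratios the tetramer libraries lay above the resting libraries.

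Relative to Il2rg, counts of the private chains were lower after stimulation. The ratio of Il7r to Il2rg was 0.0311 and 0.0773 in the tetramer libraries and 1.96 and 1.19 in the resting libraries, a difference of -4.96 in the mean log2 ratio. For Il4ra it was 0.103 and 0.128 in the tetramer libraries and 0.402 and 0.266 in the resting libraries, a difference of -1.50. Il2rb and Il21r had smaller differences of -0.83 and -0.93, with no overlap of the groups in either ratio. The 4 ratios share the denominator Il2rg, whose own log2 fold change was 0.86, so they are not independent of each other. For Il2rb and Il21r, with log2 fold changes of 0.09 and 0.01, the difference in the ratio is about that of Il2rg with its sign turned. With 2 libraries against 2, an exact two-sided permutation test cannot go below p = 0.33, so these ratios are given as a description.

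In the IL-18 receptor the ratio of Il18r1 to Il18rap was 0.963 and 0.788 in the tetramer libraries and 1.25 and 1.49 in the resting libraries. The ligand-binding chain thus fell further, by 0.65 in the mean log2 ratio. Il12rb2, the second chain of the IL-12 receptor, was scarce, with 16 and 22 counts in the tetramer libraries and 2 and 5 counts in the resting libraries, and the ratio of Il12rb1 to it overlapped between groups. Its log2 fold change of 2.35 ± 0.77 passed the threshold (edgeR adjusted p = 0.0254), and the call was lost without tetramer library 4 (adjusted p = 0.192), tetramer library 5 (0.271) or resting library 4 (0.0907). Il6ra, the IL-6 binding chain, had 17 and 13 counts in the tetramer libraries against 51 and 20 counts in the resting libraries. Its ratio to Il6st was 0.378 and 0.114 in the tetramer libraries and 1.82 and 0.833 in the resting libraries. For the IL-15 receptor, Il15ra is not among the table's rows and no ratio was formed.

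**Figure D3:**
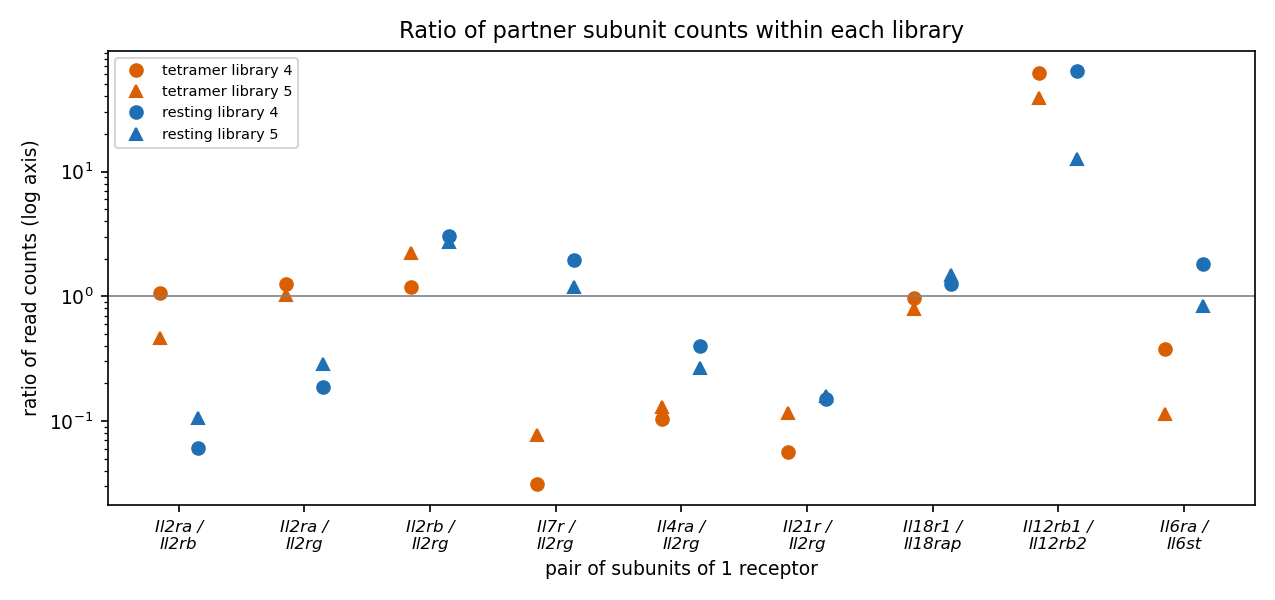
Ratio of the read counts of 2 partner subunits within each library on a log axis, for 2 tetramer libraries (orange, left) and 2 resting libraries (blue, right). Il2ra is higher relative to Il2rb and Il2rg in the tetramer libraries, the private chains are lower relative to Il2rg, and only the ratio of Il12rb1 to Il12rb2 overlaps between groups.

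Other cytokine receptor chains were mostly lower or not called. Of 45 listed genes 28 were tested, of which 1 rose, Il12rb2, and 10 fell, with a median log2 fold change of -0.92. Il12rb2 passed the filter on low counts only through the tetramer libraries, and Ghr only through the resting libraries. Il17rb and Il22ra1, both called lower, were above its cutoff in both resting libraries and 1 tetramer library. The counts and median thus depend in part on the filter. With no filter 1 gene was higher and 9 were lower. Of all tested genes 14.3% rose and 12.1% fell. Ifngr1, the ligand-binding chain of the interferon gamma receptor, had 61.6 and 102 CPM in the tetramer libraries, against 644 and 666 CPM in the resting libraries, a change of -3.00 ± 0.40 on the log2 scale. Its partner Ifngr2 and both chains of the type I interferon receptor, Ifnar1 and Ifnar2, were also called lower, by 1.26, 1.18 and 1.26 on the log2 scale, and were named after their values were seen. All 3 calls were lost without tetramer library 4 or resting library 5 and in a test against a fold of 1.5, and that of Ifngr2 also without tetramer library 5. Il10rb and Il17ra, also named after their values were seen, had larger falls (log2 fold changes of -1.69 and -1.42). Their calls held against a fold of 1.5 and without resting library 5, and were lost without tetramer library 4. Ghr, the growth hormone receptor, fell by 2.22 from few reads (4 and 4 counts in the tetramer libraries, 17 and 20 counts in the resting libraries), and its call was lost without either tetramer library (adjusted p = 0.335 and 0.273) and against a fold of 1.5. Il17rb, a receptor for IL-25, fell by 2.02, with -1.34 and no call without tetramer library 4 and -3.31 without tetramer library 5. Csf3r, the receptor for G-CSF, fell by 1.89 (by 1.21 without resting library 5), and is itself a marker of neutrophils, whose summed levels are given above. Without tetramer library 4 only Ifngr1 and Csf3r were called lower, and no gene of the list was called higher.

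Among the kinases and factors that carry the signal, 11 Janus kinase and STAT genes were tested, with 1 higher, 3 lower and a median log2 fold change of -0.59. Over all tested genes the shares were 14.3% higher and 12.1% lower. Jak3, the kinase bound to the common gamma chain, had 73.0 and 41.9 CPM in the tetramer libraries and 16.6 and 20.1 CPM in the resting libraries, a rise of 1.65 ± 0.44 (edgeR adjusted p = 0.00737) that was not called without tetramer library 4 (1.21, adjusted p = 0.240). Jak1, the kinase on the private chains and on gp130, had 295 and 429 CPM in the tetramer libraries and 769 and 721 CPM in the resting libraries, a fall of 1.04 that was called with all 4 libraries (edgeR adjusted p = 0.0384) and not when any single library was left out (adjusted p 0.0695 to 0.415). Stat4, the factor activated by IL-12, had 167 and 213 CPM in the tetramer libraries, against 881 and 443 CPM in the resting libraries. Its fall of 1.80 ± 0.40 was called with each single library left out, at 1.21 without resting library 4. Stat2, of the type I interferon pathway, fell by 1.31, a call lost without tetramer library 4 or resting library 4. Thus Il12rb1 was higher and Stat4 lower in the same libraries, as Jak3 was higher and Jak1 lower with 4 libraries.

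Of 14 tested SOCS genes and other brakes on these receptors, 2 rose and 0 fell by edgeR (median log2 fold change -0.02), and 0 fell by DESeq2 or limma-voom. The share of rises was near the 14.3% of all tested genes, and 12.1% of all tested genes fell. At an unadjusted p under 0.05, 1 gene of this list was lower. Cish, a SOCS family member induced by STAT5, had 306 and 245 CPM in the tetramer libraries and 76.2 and 57.9 CPM in the resting libraries, a rise of 2.04 ± 0.38. Ptpn6, the phosphatase SHP-1, had 257 and 229 CPM in the tetramer libraries and 39.2 and 53.6 CPM in the resting libraries. Both were called with each single library left out. For the IL-18 pathway 13 genes were tested, with 1 higher, 2 lower and a median of -0.18. For a list of this size both counts were close to the shares of all tested genes. The adaptor Myd88 was at 117 and 61.7 CPM in the tetramer libraries and 29.0 and 39.7 CPM in the resting libraries, a rise of 1.37 ± 0.41 whose call was lost without tetramer library 4 or resting library 4. Irak3, an inhibitory IRAK, fell by 2.53 and the ubiquitin ligase Peli1 by 2.43 on the log2 scale, both called in each of these fits. The receptor chains of this pathway and its adaptor thus stood on opposite sides of 0.

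Of 19 listed ligands of these receptors 8 were tested, and 5 were higher and 0 lower by edgeR (median log2 fold change 2.14). Of all tested genes 14.3% were higher and 12.1% lower. Only 10 of the 19 are in the deposited counts, which list no gene with a 0. The rest were missing before the filter. Il13, Il21 and Lif passed the filter on low counts only through the tetramer libraries. Il4 and Ebi3 were above its cutoff in both tetramer libraries and 1 resting library. Il12b was above it in 1 library of each group, and Osm in both resting libraries and 1 tetramer library. The filter thus favours rises in this list, and its count and median are not read as a trait of the ligands. No ligand was lower by DESeq2 or limma-voom, and 1 was lower at an unadjusted p under 0.05. Il21, the ligand of Il21r, had 260 and 108 counts in the tetramer libraries, against 2 and 3 counts in the resting libraries, a scaled ratio of 71.2 with an exact 95% interval from 30.2 to 220 for counting error only. Its log2 fold change of 6.09 was 5.32 without tetramer library 4 and 6.60 without tetramer library 5, and called in both cases. The ligand was thus nearly absent at rest, while its receptor chain did not pass the threshold. Il13, whose receptor includes Il4ra, had 582 and 307 counts in the tetramer libraries and 1 count in each resting library, the lowest value the table holds. Il4, the ligand that binds Il4ra, had 56 and 14 counts in the tetramer libraries against 10 and 3 counts in the resting libraries. Its log2 fold change of 2.37 ranged from 1.06 (without tetramer library 4) to 3.44 (without resting library 4) with single libraries left out. The Il4 call was lost without tetramer library 4 or resting library 5 (log2 fold change 1.80), in the test against a fold of 1.5 and by limma-voom. The stricter filter left Il4 out. Il12b, the shared subunit of IL-12 and IL-23, had 7 and 58 counts in the tetramer libraries and 3 and 10 counts in the resting libraries, so that the groups overlapped. Its call (edgeR adjusted p = 0.0457) was lost without tetramer library 5 (log2 fold change 0.07) or resting library 4 (adjusted p = 0.102), with library totals (0.0557), with no filter (0.0555), against a fold of 1.5 (0.0813), by DESeq2 (0.0987) and by limma-voom (0.164). Dendritic cell markers (4 of 6 listed, 2 called higher by edgeR, 1 by limma-voom and 0 by DESeq2) summed to 76.3 and 270 CPM in the tetramer libraries and 262 and 266 CPM in the resting libraries, nearly all of it Xcr1, which was not called. The 2 called by edgeR were the scarce Itgax and Zbtb46, with 17 to 54 counts in the tetramer libraries and 1 to 13 counts in the resting libraries, and the list's part in the Il12b value was not tested. Il2, Il7, Il15 and Il18 were not among the genes tested.

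**Figure D4:**
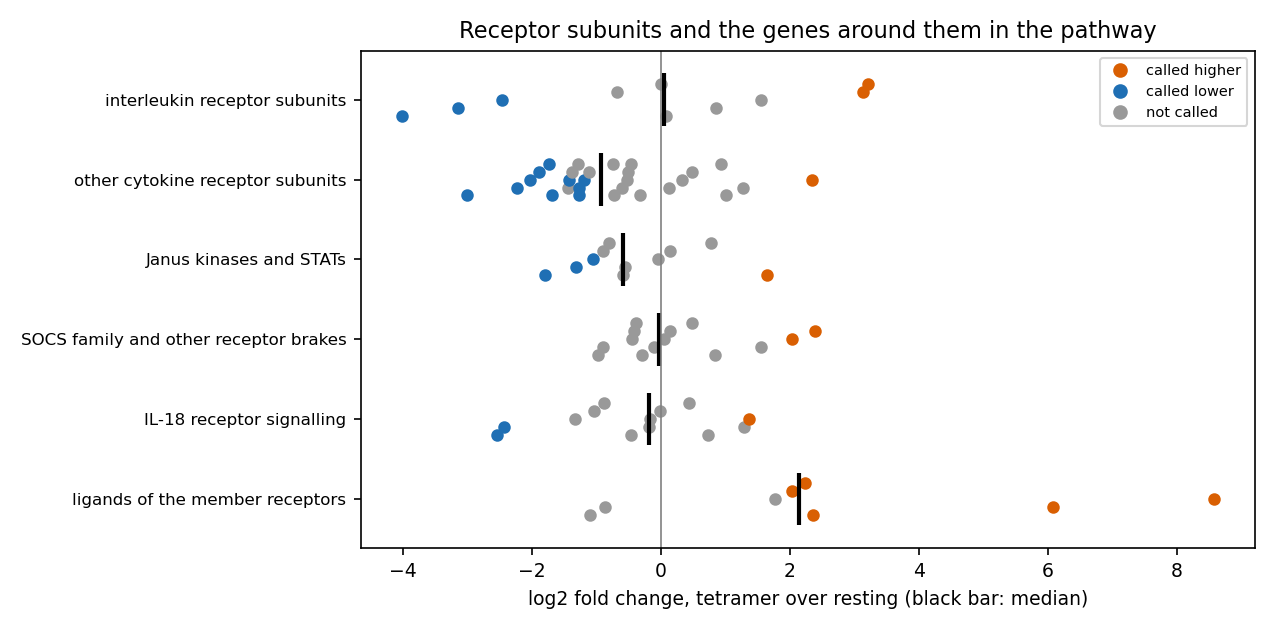
Change (log2, tetramer over resting) of the tested genes of the receptor subunits and of 5 lists around them, with orange for called higher, blue for called lower, grey for not called and a black bar at each median. The medians are 0.05 for the receptor subunits, -0.92 for other cytokine receptor subunits and 2.14 for ligands. Among the ligands, Il13, Il21 and Lif passed the filter on low counts only through the tetramer libraries, and Il4 and Ebi3 could not pass through the resting libraries alone. Among the other receptor subunits, Il12rb2 passed only through the tetramer libraries and Ghr only through the resting libraries.

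The profile of each strongly changed member over the 4 libraries was set beside those of other genes with a mean of at least 10 CPM, by the Euclidean distance of mean-centred log2 CPM. Nearest to Il2ra were Snrpd1, a core spliceosome protein (distance 0.074), Nrgn (0.093) and Ece2 (0.205). Those nearest to Il12rb1 were Rfc5, a subunit of the clamp loader of DNA replication, Rrp8 and Nudt5 (0.210 to 0.256). Nearest to Il18r1 were Crebrf (0.063), Tmem71 and Tcf7, a T cell transcription factor (0.253 and 0.279). Il7r had no neighbour as close, the nearest being Cd7, Lpar6 and Cxcr4 (0.425 to 0.441). Crebrf had 11.5 and 26.1 CPM in the tetramer libraries and 197 and 142 CPM in the resting libraries. Its order of the 4 libraries is that of Il18r1, which follows from its choice as the nearest of 7410 genes. Such distances rest on 4 libraries and describe these libraries only.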

How the data were processed

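RNA was sequenced from NKT cells of 2 groups, tetramer-stimulated and resting, with 2 libraries each. Per the labels' protocols, poly(A) RNA was reverse transcribed and amplified by 23 PCR cycles at lengths of 200 to 400 nt. The authors deposited 1 table of read counts per gene symbol. Bowtie2, DESeq2 and mm9 are named in the submitters' processing notes. The counting tool, strand and treatment of shared reads are not stated there. Columns show the group and a number, 4 or 5, that is not the titles' replicate number, so they were matched to groups only. No count is below 1, and 1 row with a cell that is not a number was left out, leaving 12020 genes.

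The test was that of edgeR 4.0.16 under R 4.3.3 (quasi-likelihood F test, default filter, TMM factors, Benjamini-Hochberg adjustment over 11312 genes, threshold 0.05). SEs and 95% intervals come from the F statistic. The code was tested on simulated data. Within groups, counts differed by more than sampling noise (chi-square over its degrees of freedom 28.5 in the tetramer pair and 31.7 in the resting pair), so each library was counted. No label says whether the libraries of a group stem from different mice, so p-values reflect library spread that may be only technical. The exact (Clopper-Pearson) interval covers counting error only, since PCR reads are not independent molecules.

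The members, 5 pathway lists and 12 marker lists were chosen with earlier results of these data known. Named genes were the members, up to 4 called genes per pathway list and direction with the largest changes, and the 3 nearest profiles of the 2 members with the largest rises and the 2 with the largest falls. The 2 most abundant genes of each marker list also fell under the rule, and those that bear on a result are named. Alternatives were library totals, upper-quartile factors, DESeq2 1.42.0, limma-voom (limma 3.58.1), no filter, a filter of 5 CPM in 2 libraries, a test against a fold of 1.5, the column number as a block, and each library left out, where a lone library is assumed to vary as the other group did.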

Additional observations from a re-analysis of the deposited data

How the results depend on the processing

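The 5 called members kept their call and direction under all 12 alternatives, with 2 to 3 members called higher and 3 lower. Il2rb was -0.20 with library totals and ranged from -0.38 to 0.47 with single libraries left out (lowest without tetramer library 5). Il21r was -0.28 with library totals, -0.0018 with upper-quartile factors, -0.064 by limma-voom, -0.062 with the replicate block, -8.4e-04 without resting library 4, and from -0.53 (without tetramer library 5) to 0.43 with single libraries left out. Il2rg was called by DESeq2 only. With library totals the median gene moved to -0.35 on the log2 scale, against -0.06 with TMM, and calls split into 1193 higher and 2250 lower, against 1620 and 1366. In the test against a fold of 1.5, 1110 genes were higher and 785 lower, and with single libraries left out 622 to 1629 were higher and 313 to 1488 lower, the lowest counts without tetramer library 4.

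Among other receptor subunits, 0 were higher by DESeq2, with the stricter filter (which leaves Il12rb2 out) or against a fold of 1.5, where 5 were lower, and with single libraries left out 0 to 2 were higher and 2 to 14 lower. Of the kinases and STATs, 5 were lower with library totals and 1 in the test against that fold, with 0 to 1 higher and 1 to 2 lower with single libraries left out. Of the SOCS list 1 was lower with library totals, and with single libraries left out 2 were higher and 0 lower. In the IL-18 list, 4 were lower with library totals and 0 higher in that test, with 0 to 1 higher and 2 to 3 lower with single libraries left out. Of the ligands, 3 were higher with library totals (1 lower), by DESeq2 and by limma-voom, and 2 with the stricter filter or against a fold of 1.5, with 3 to 5 higher and 0 to 1 lower with single libraries left out. The causes were not tested.

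Same-numbered columns deviated together only weakly (r = 0.0486 across genes). With 2 libraries per group this cannot show whether the numbers pair the samples, and no label says so. The replicate block called 1693 genes higher and 1468 lower with 1 residual degree of freedom. It added Il6st and lost Jak1 (adjusted p = 0.0791). Among the receptor and ligand genes named, Il6st, Il12rb2, Il6ra, Ghr, Il17rb, Il4 and Il12b have at most 114 counts in any library, and counting error is larger at such counts.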
